A study of Monodelphis domestica with 25 samples.

Results

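Perfluorooctanoic acid (PFOA) was given to cultured opossum blood at a low and a high dose, and the comparison described here sets the high dose against the low dose within each culture time. It covers 4 libraries, 1 for each dose at 12 h and 1 for each dose at 24 h, out of 10 in the treatment experiment and 25 in the series. They were chosen by their labels: every column of the treatment table whose title gives PFOA with the word high or low. The blood came from the gray short-tailed opossum, Monodelphis domestica, of the LSD strain, and was diluted 1:2 in RPMI-1640 medium. The treatment experiment also held 2 control libraries at 12 h, 2 at 24 h and 2 libraries with GenX at 12 h, labelled high. The protocol lists 400 and 800 µM PFOA, read here as low and high, and the larger GenX concentration, 1200 µM, was read as high. The solvent, dimethyl sulfoxide, was brought to 0.1% in treated and control cultures alike per the protocol, although the controls carry the label of no treatment. No animal age or sex is used here, and the titles of the treatment experiment carry A9394 followed by R1, R2, R3 or R4. The labels leave unsaid whether these numbers mark animals or culture wells, so the spread between libraries may be technical. Both 12 h PFOA libraries carry R2 and both 24 h PFOA libraries carry R1, so that time and number cannot be told apart. A further 15 libraries of untreated blood (0, 12, 24, 48 and 72 h, 3 each) served only to define lists of transcripts that move in culture.

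PFOA is a perfluorinated carboxylic acid that acts as a surfactant, binds strongly to serum albumin and, in rodent liver, activates the fatty acid receptor PPARα. Whole blood holds red cells, several kinds of white cells and platelets, and in culture these cell types survive to different degrees. RNA from such a mixture reports both how many cells of each type remain and how much of a transcript each cell holds. The files pair almost none of their transcript identifiers with gene names, and no identifier matched the reference gene table, so cell type and pathway markers could not be looked up and the tissue label was not checked against them. The transcripts are therefore described by identifier and by how they behaved in untreated blood, and 10 features that carry a gene-like name are described by that name.

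At 24 h the high-dose library had the smallest total and the most uneven make-up of the 10 libraries. At 12 h the low-dose library held 4027470 counts and the high-dose library 2412085. At 24 h the low-dose library held 754708 and the high-dose library 366269, which is 5.34-fold less than at 12 h for the low dose and 6.59-fold less for the high dose. The controls held 4487453 to 11685427 and the GenX libraries 3654215 to 6433771. A count says nothing here on how much RNA each culture yielded.

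The 10 most abundant transcripts took 5.82% of the counts at the low dose and 9.84% at the high dose at 12 h. At 24 h they took 7.01% at the low dose and 19.0% at the high dose. The same share was 4.61 to 5.17% in the controls and 5.56 to 7.49% with GenX. At both times the high-dose library was therefore above its low-dose partner and above the controls, by a ratio of high over low of 1.69 at 12 h and 2.71 at 24 h. Counted over the 100 most abundant transcripts, the ratios were 1.20 and 1.55. With 2 libraries a dose, the smallest two-sided exact permutation p would be 0.333, so no test was made.

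The most abundant transcript in 3 of the 4 PFOA libraries, though not in the low-dose library at 24 h, was ENSMODT00000014407, named here after its values were seen. Its level was 12540 CPM (a library's counts scaled to a shared total) at the low dose and 52580 CPM at the high dose at 12 h. At 24 h it was 8009 CPM at the low dose and 64070 CPM at the high dose. The controls lay at 5027 ± 562 CPM (SD, n = 4), and the GenX libraries at 5604 and 15380 CPM, the latter above both low-dose PFOA libraries. At 12 h, 8 of the 10 most abundant transcripts were shared by the 2 doses, and at 24 h 5 of 10 were. The high-dose library at 24 h shared 2 of its 10 with the mean of the controls.

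**Figure D1:**
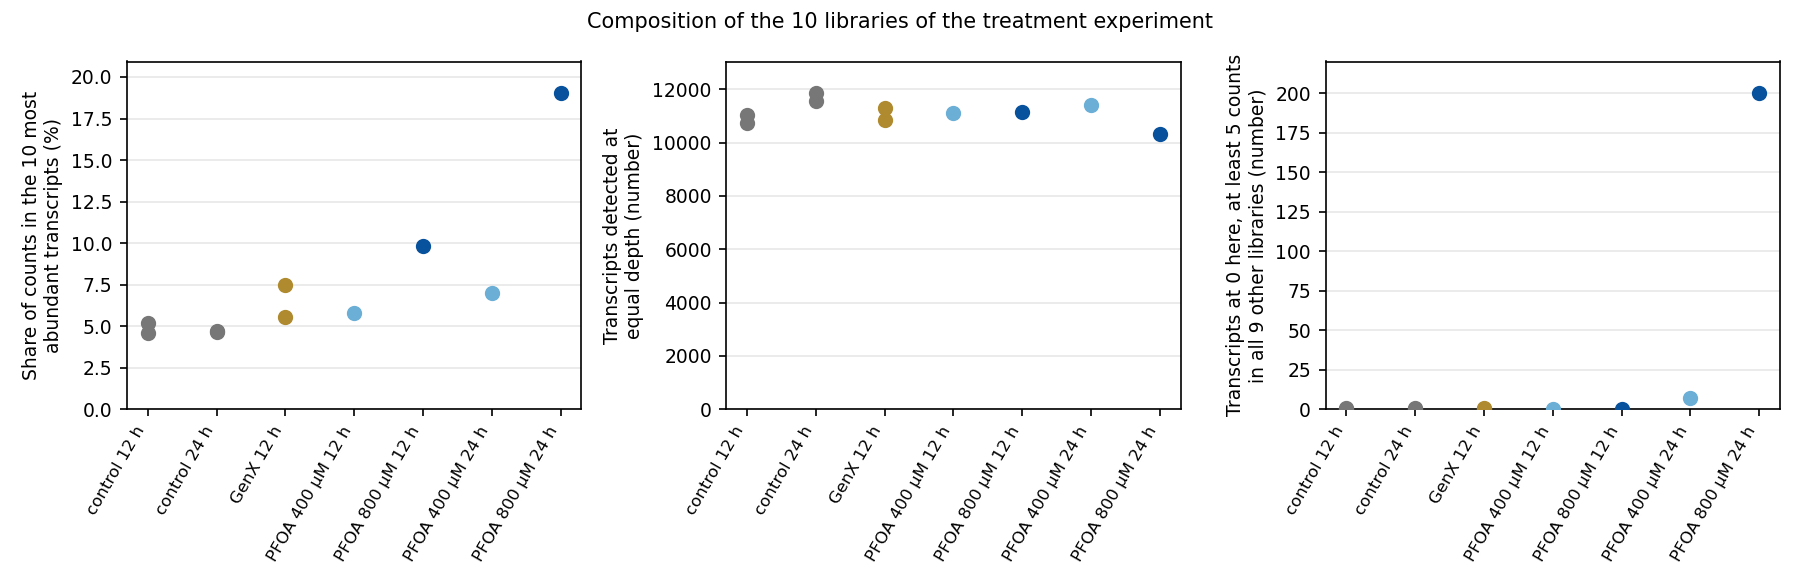
Composition of the 10 libraries of the treatment experiment, 1 point per library, grouped by treatment and time: the share of counts in the 10 most abundant transcripts (%), the number of transcripts detected after all libraries were thinned to the same total, and the number of transcripts at 0 in that library only. The high-dose library at 24 h stands at 19.0%, 10330 detected transcripts and 200 isolated zeros.

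The high-dose library at 24 h also lacked many transcripts that every other library had. All libraries were thinned to the total of the smallest, 366269 counts, by random draws with a fixed seed. At that depth the low-dose libraries held 11098 transcripts at 12 h and 11423 at 24 h, and the high-dose libraries 11135 and 10330. The controls held 10718 to 11855. Of 5284 transcripts with at least 5 counts in each of the other 9 libraries at equal depth, 200 had no count in the high-dose library at 24 h. The same number was 7 for the low-dose library at 24 h and 0 or 1 for each of the other 8 libraries. Depth alone was equalised in these counts, and the part of this library's make-up in the 24 h results below was not tested.

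The 2 PFOA libraries of 12 h were close to each other, and the 2 of 24 h were far apart. At equal depth, the rank correlation of transcript counts between high and low dose was 0.918 at 12 h and 0.727 at 24 h (12565 transcripts). Replicate controls reached 0.938 at 12 h and 0.911 at 24 h, and the GenX pair 0.901. Set against the 24 h controls, the low-dose library at 24 h reached 0.851 and 0.863 and the high-dose library 0.690 and 0.691. These are correlations across transcripts of single libraries, which share the composition described above.

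The share of transcripts that differed by more than 4-fold within a pair gave the same order. After every pair was thinned to the 2 totals of the 24 h PFOA pair and scaled on its own, 13.9% of the 12565 transcripts differed more than 4-fold between doses at 24 h. Between doses at 12 h the share was 0.907%, within the range of the replicate pairs: 0.334% between the 12 h controls, 0.971% between the 24 h controls and 1.62% between the GenX libraries. At the full totals of the 12 h pair, which show more of the low transcripts, 3.61% differed more than 4-fold between doses, against 0.669% for the 12 h controls and 6.27% for the GenX pair, thinned to the same totals. The dose difference at 12 h was thus larger than that of one replicate pair and smaller than that of the other.

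**Figure D2:**
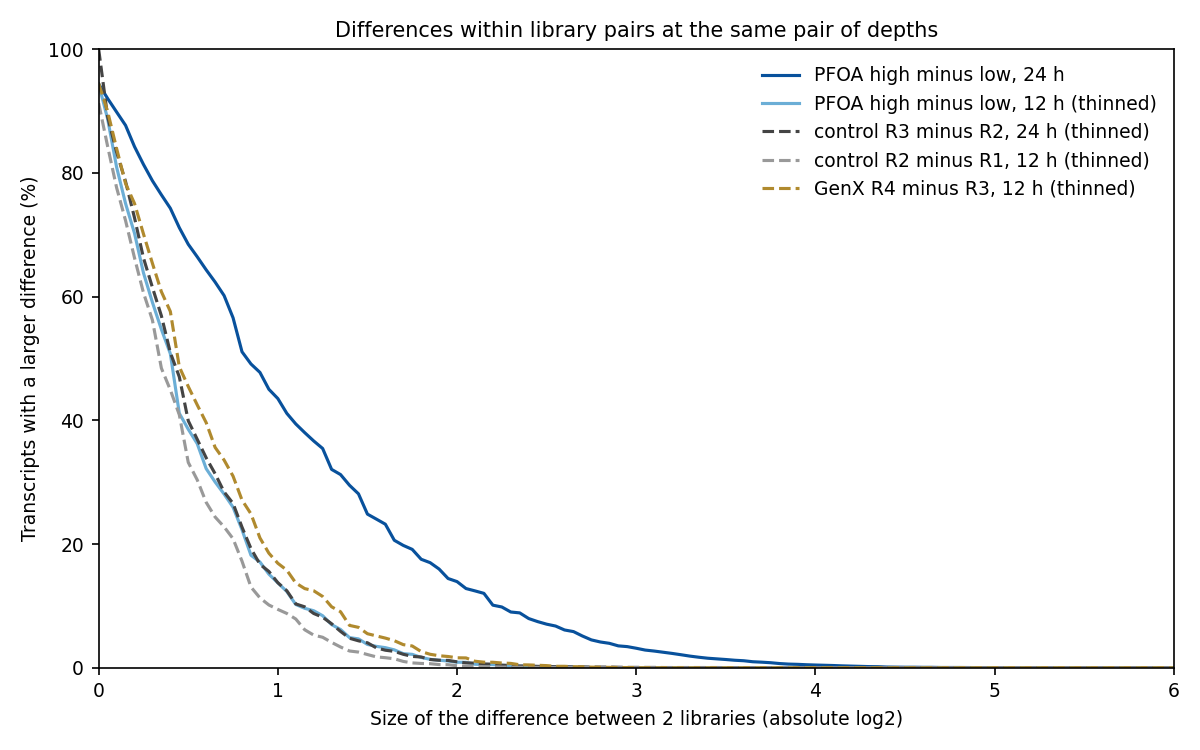
Percentage of transcripts (y axis) whose difference within a pair of libraries exceeded a given absolute log2 size (x axis), each pair at the totals of the 24 h PFOA pair. The line of the 24 h dose pair lies above the other lines over most of the range, with 13.9% of transcripts beyond 4-fold (log2 of 2), and the line of the 12 h dose pair lies among the replicate pairs.

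Over both times together, 2 transcripts were higher at the high dose and none was lower. They were 0.0159% of the 12565 transcripts tested by edgeR's quasi-likelihood F test fitted to the 10 libraries with terms for treatment and time, with Benjamini-Hochberg adjusted p under 0.05 as the threshold for a call. At an unadjusted p under 0.05 there were 895. Neither transcript has a gene name in the files.

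ENSMODT00000014426 stood at 287 CPM at the low and 1347 CPM at the high dose in the 12 h pair, and at 214 and 1865 CPM in the 24 h pair. The 4 controls stood at 124 to 171 CPM (149 ± 19.99, SD, n = 4) and the GenX libraries at 150 and 213 CPM. Both high-dose libraries lay far above the other 8, and both low-dose libraries lay above the controls. High over low was 4.70-fold at 12 h (95% interval from counting error alone 4.39 to 5.02, from 1190 and 3092 counts) and 8.73-fold at 24 h (7.35 to 10.4, from 171 and 588 counts). The fitted log2 fold change over both times was 2.67 (SE 0.355, adjusted p = 0.0144, edgeR with Benjamini-Hochberg adjustment).

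ENSMODT00000038822 stood at 50.1 CPM at the low and 210 CPM at the high dose in the 12 h pair, and at 63.7 and 609 CPM in the 24 h pair. The controls stood at 32.1 to 55.8 CPM (41.3 ± 10.2, SD, n = 4) and the GenX libraries at 27.5 and 35.8 CPM. Both high-dose libraries were above the other 8, while the low-dose library at 12 h lay inside the control range. High over low was 4.19-fold at 12 h (counting interval 3.55 to 4.95) and 9.56-fold at 24 h (6.99 to 13.3). The fitted log2 fold change was 2.68 (SE 0.382, adjusted p = 0.0165, edgeR with Benjamini-Hochberg adjustment).

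Both calls depended on some of the single libraries and not on others. They held without either control of 12 h, without control R2 of 24 h and without either GenX library. Without the high-dose library of 12 h the log2 fold change was 2.94 for ENSMODT00000014426 and 3.23 for ENSMODT00000038822. Without the low-dose library of 12 h, the adjusted p was 0.189 for ENSMODT00000014426 and 0.217 for ENSMODT00000038822; without the low-dose library of 24 h it was 0.961 for both, and without control R3 of 24 h it was 0.0501 for both (edgeR with Benjamini-Hochberg adjustment). Without the high-dose library of 24 h the first kept its call (adjusted p = 0.0103) and the second did not (0.100). With the replicate number as a block beside treatment and time, the adjusted p was 0.0647 for both. The log2 fold changes stayed between 2.29 and 2.98 for the first and between 2.00 and 3.23 for the second over 20 alternative analyses each.

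In untreated blood both of these transcripts declined with time in culture. ENSMODT00000014426 had a median of 44340 CPM at 0 h, 14650 CPM at 12 h and 54.6 CPM at 72 h (n = 3 each), and ENSMODT00000038822 had 15170, 6708 and 8.86 CPM. The libraries of 1 time spread widely: at 12 h the first ran from 1126 to 35590 CPM and the second from 638 to 14500 CPM. Untreated libraries of the same time thus differed by more than the dose ratios given above. The fall from 0 to 72 h passed the test for both (log2 fold change -7.89 and -9.12, adjusted p = 0.00615 and 0.00307, edgeR with Benjamini-Hochberg adjustment over 15524 transcripts), and the 12 against 0 h difference did not (adjusted p = 0.733 and 0.816). The titles of the untreated libraries carry the same 3 labels at each time, and this test had no term for them. It did not use the change within each label, so the missing call at 12 h does not show that nothing changed. ENSMODT00000014407 had the same course, with medians of 683200, 383500 and 1487 CPM at those times and a range of 52720 to 798000 CPM at 12 h. The time course and the treatment table were scaled separately, so a level of one cannot be set against a level of the other.

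No transcript lower at the high dose passed over both times. The nearest by the naming rule were ENSMODT00000017286 and ENSMODT00000022264. The first had 32 and 0 counts at 12 h (7.71 and 0 CPM) and 12 and 0 counts at 24 h, in each case low dose first, which is at least 5.90-fold and 1.58-fold lower against the level of 3 counts in the high-dose library (adjusted p = 0.382, edgeR with Benjamini-Hochberg adjustment). The second stood at 16.2 and 5.23 CPM in the 12 h pair and at 76.2 and 12.7 CPM in the 24 h pair. Its log2 fold change was -1.94 (SE 0.532, adjusted p = 0.382). Its controls were at 11.47 and 13.87 CPM at 12 h and 66.0 and 110 CPM at 24 h, so each low-dose library was near the controls of its time or slightly above them. The interval of the dose difference had a median half-width of 1.21 on the log2 scale, and it lay wholly within 2-fold either way for 13.5% of transcripts and within 4-fold for 56.1%.

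**Figure D3:**
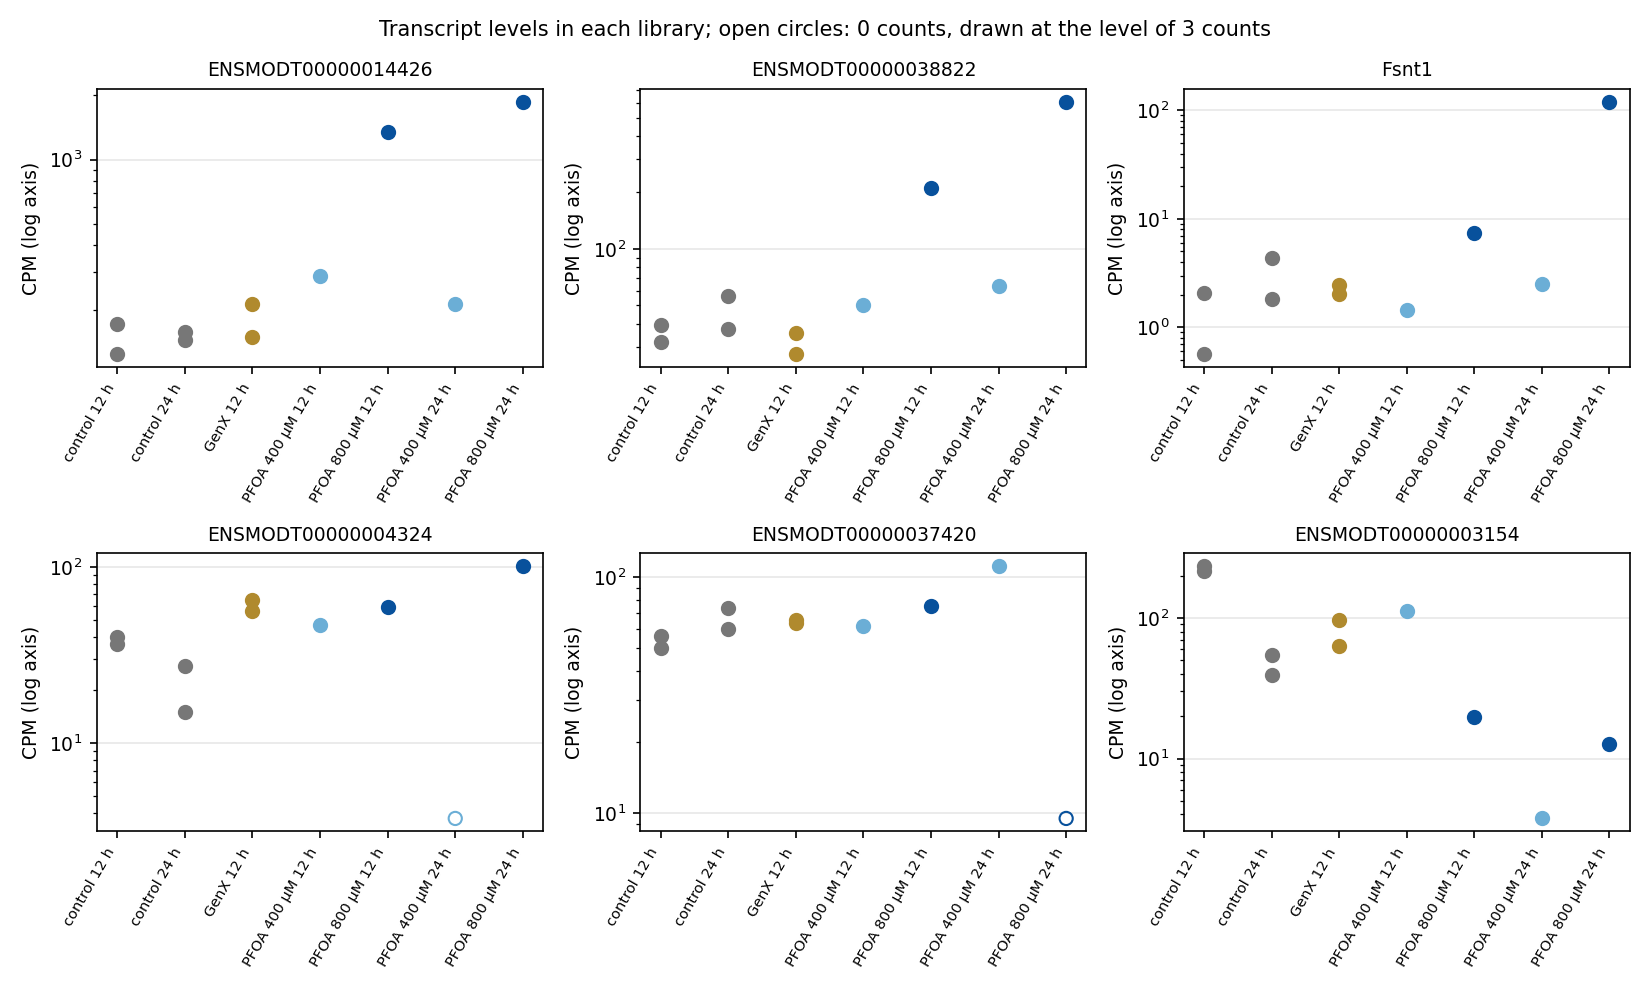
Level in CPM (log axis) of 6 transcripts in each of the 10 libraries, 1 point per library, grouped by treatment and time; open circles mark 0 counts and are drawn at the level of 3 counts in that library. ENSMODT00000014426 and ENSMODT00000038822 were highest in the 2 high-dose libraries, at 1347 and 1865 CPM and at 210 and 609 CPM.

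At 12 h alone no transcript passed the test (0% of 12565; smallest adjusted p = 0.383, edgeR with Benjamini-Hochberg adjustment), 516 transcripts fell under 0.05 before adjustment, and DESeq2 called 3, the 2 transcripts above (adjusted p = 6.49e-08 and 0.000193) and ENSMODT00000003154 (8.13e-05). With 1 library per dose and time, this test assumes that the PFOA libraries vary as the control and GenX replicates do, with 3 residual degrees of freedom. The 2 transcripts above led the higher side (log2 fold change 2.23, adjusted p = 0.383, and 2.07, adjusted p = 0.506). Without GenX R3 or R4, ENSMODT00000014426 passed (adjusted p = 0.0188 and 0.0310), as it did after thinning (0.0205). By size, 1215 transcripts (9.67%) were more than 2-fold higher and 1065 (8.48%) more than 2-fold lower at the high dose.

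On the lower side at 12 h stood ENSMODT00000003154, which passed by DESeq2 (adjusted p = 8.13e-05), without a low-count filter (2.26e-06) and without GenX R3 or R4 (0.0188 and 0.0310), but not in edgeR's test on all 10 libraries. It was at 113 CPM (468 counts) at the low dose and 19.6 CPM (45 counts) at the high dose, with 214 and 234 CPM in the 12 h controls and 96.5 and 63.2 CPM with GenX. The 4 treated libraries of 12 h lay below both controls of that time, lowest at the high dose. The log2 fold change was -2.52 (SE 0.417, adjusted p = 0.383, edgeR with Benjamini-Hochberg adjustment). At 24 h it was down to 3 and 4 counts at the low and the high dose, a ratio of 3.39 with a counting interval of 0.573 to 23.1, so that no dose difference was detectable there. ENSMODT00000023990 had 67 counts at the low and 2 at the high dose at 12 h (16.2 and 0.871 CPM, ratio 0.0539, counting interval 0.00640 to 0.203), against 14.2 CPM on average in the 12 h controls (adjusted p = 0.689).

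Between the single high-dose and the single low-dose library of 24 h, 1347 of 12565 transcripts (10.7%) passed the threshold, 525 higher (4.18%) and 822 lower (6.54%) at the high dose, and 959 of the 1347 by at least 4-fold. The spread in this test came from the control and GenX replicates alone, and the high-dose library stood apart from those libraries (19.0% of counts in 10 transcripts, 200 isolated zeros). The calls therefore compare these 2 libraries and do not show that the doses differ. Of the calls 38.98% were higher; this share was 53.7% by DESeq2, 52.7% after thinning all libraries to the smallest total and 54.0% with halved counts, so that no balance between the directions held across the analyses. By size, with the pair scaled on its own, 2237 transcripts were more than 2-fold higher and 3233 more than 2-fold lower. With all 10 libraries scaled together, 2669 transcripts (21.2%) were more than 2-fold higher and 4140 (32.9%) more than 2-fold lower. The median of all transcripts was -0.20 on the log2 scale; scaling by relative log expression factors moved it by 0.13 and leaving the 50 most abundant transcripts out of the scaling moved it by -0.10. The number of calls depended on how the counts were read: most values of 1 to 12 counts were even (67.8 to 75.1% by library). If both mates of a read pair were counted, which the sources do not state, each printed count would exceed the number of fragments behind it, and with counts halved for that case and rounded up, 396 transcripts passed. Without any 1 of the 4 controls the number was 736 to 842.

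The transcripts called higher at 24 h were high in the high-dose library and often low in the low-dose library. Over these 525, the median log2 difference from the 24 h controls was 2.15 for the high-dose library and -0.56 for the low-dose library. The high-dose library lay above all 4 controls for 485 of them. The low-dose library lay below all 4 controls for 336, inside their range for 112 and above them for 77, and it had no count for 83. The 2 libraries thus stood on opposite sides of the controls for most of these transcripts. The 525 were chosen for a difference between these same 2 libraries, so such an opposition follows in part from the choice and no conclusion is drawn from it.

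The transcripts called lower at 24 h were low in the high-dose library. Over these 822, the median log2 difference from the 24 h controls was -2.67 for the high-dose library and -0.01 for the low-dose library. The high-dose library lay below all 4 controls for 822 of 822, and it had no count for 268. The low-dose library was inside the control range for 316, above it for 292 and below it for 214. Since the calls used these 2 libraries, these counts describe the called transcripts and support nothing further. In blood, fewer cells of a type and less RNA per cell cannot be told apart.

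ENSMODT00000004324 and ENSMODT00000013948 were the named transcripts on the higher side. The first was at 47.0 and 59.7 CPM in the 12 h pair at low and high dose, and at 0 and 102 CPM (0 and 32 counts) in the 24 h pair, at least 27.1-fold higher against the level of 3 counts in the low-dose library (adjusted p = 0.00239, edgeR with Benjamini-Hochberg adjustment). Its controls were at 15.1 to 40.2 CPM, so the low-dose library was the one far outside them on the low side and the high-dose library outside them on the high side. The second was at 19.3 and 40.1 CPM in the 12 h pair, and at 0 and 82.5 CPM (0 and 26 counts) in the 24 h pair, at least 22.0-fold higher (adjusted p = 0.00414). Its controls were at 8.34 to 18.5 CPM.

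ENSMODT00000037420 and ENSMODT00000017369 were the named transcripts on the lower side. The first was at 61.7 and 75.4 CPM in the 12 h pair, and at 111 and 0 CPM (89 and 0 counts) in the 24 h pair, at least 11.7-fold lower (adjusted p = 0.00239, edgeR with Benjamini-Hochberg adjustment). It was at 49.9 to 73.8 CPM in the controls and at 64.1 and 65.4 CPM with GenX, so 8 libraries lay close together, the low-dose 24 h library was higher and the high-dose 24 h library had none. The second was at 67.3 and 29.2 CPM in the 12 h pair, and at 110 and 0 CPM (88 and 0 counts) in the 24 h pair, at least 11.6-fold lower (adjusted p = 0.0123). With halved counts its call was lost (adjusted p = 0.0507). Its controls ran from 93.8 to 493 CPM. These 4 were chosen for size, and each rests on 1 library with no count.

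Beyond identifiers, 10 features carry a gene-like name, and 6 of them had enough counts to test. One of the 6, Fsnt1, passed at 24 h, where 10.7% of all transcripts did, so this count says nothing particular of the named features. The files do not say what the name stands for. Fsnt1 had 6 and 17 counts at 12 h at low and high dose (1.45 and 7.40 CPM) and 2 and 38 counts at 24 h (2.50 and 120 CPM). The controls were at 0.564 to 4.35 CPM and GenX at 2.02 and 2.43 CPM, so both high-dose libraries lay above the other 8 libraries. The ratio at 24 h was 48.2 with a counting interval of 12.5 to 413, and the log2 fold change was 5.58 (SE 1.35, adjusted p = 0.0249, edgeR with Benjamini-Hochberg adjustment). With halved counts the call was lost (adjusted p = 0.0563). At 12 h and over both times it did not pass (adjusted p = 1 and 0.382).

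Phlda2_trans and Tnsf1 were also higher at the high dose at both times, without passing. Phlda2_trans, which shares its name with a placental growth regulator imprinted in eutherian mammals, was at 11.1 and 34.4 CPM in the 12 h pair and at 7.50 and 25.4 CPM in the 24 h pair (6 and 8 counts). The controls lay at 6.29 to 14.4 CPM, and the GenX libraries, at 24.4 and 38.6 CPM, overlapped the high-dose PFOA libraries. Its log2 fold change over both times was 1.67 (SE 0.553, adjusted p = 0.488, edgeR with Benjamini-Hochberg adjustment), with a 95% interval of 0.50 to 2.84. Tnsf1 was at 0.964 and 5.66 CPM in the 12 h pair and at 2.50 and 25.4 CPM in the 24 h pair, from at most 13 counts (log2 fold change 2.95, adjusted p = 0.575). Its controls lay at 1.58 to 3.45 CPM and its GenX libraries at 3.11 and 1.22 CPM.

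The other tested names were not higher at the high dose at both times. Rsx, the noncoding RNA that coats the inactive X chromosome of marsupial females, was at 2.17 and 1.74 CPM in the 12 h pair and at 11.2 and 47.6 CPM in the 24 h pair (9 and 15 counts; adjusted p = 0.333 at 24 h, edgeR with Benjamini-Hochberg adjustment). Cdkn1c_trans, named like a cell cycle inhibitor, had 4 and 0 counts at 12 h and 6 and 0 at 24 h, low dose first. Fsnt3 had 12 and 6 counts at 12 h and 6 and 0 at 24 h. At these depths, where 3 counts are 3.75 CPM in the low-dose and 9.52 CPM in the high-dose library at 24 h, a difference in either was not detectable. The names that could not be tested were H19_trans, Igf2_trans, Ins2_trans and Peg10_trans, each with at most 3 counts in any PFOA library.

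The test of a change in the dose difference from 12 to 24 h passed for 196 transcripts (1.56%), 78 upward (0.621%) and 118 downward (0.939%), in the same model (edgeR, Benjamini-Hochberg adjusted). Each of the 4 dose and time groups is 1 library here too, the spread is again that of the control and GenX replicates, and so these calls compare 4 libraries rather than times. Of these, 195 were also called at 24 h, which is 99.5% of the 196 and 14.5% of the 1347. The number fell to 0 without any 1 of the 4 controls and to 3 with halved counts, and rose to 673 or 705 without either GenX library. The higher share of 39.8% was 52.7% with relative log expression factors, 51.6% by DESeq2 and 56.8% after thinning.

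On the upward side, ENSMODT00000017157 was at 11.1 and 4.36 CPM in the 12 h pair and at 0 and 50.8 CPM in the 24 h pair, low dose first (adjusted p = 0.0338, edgeR with Benjamini-Hochberg adjustment). ENSMODT00000014775 was at 29.4 and 17.0 CPM in the 12 h pair and at 0 and 63.4 CPM in the 24 h pair (adjusted p = 0.0245). Both were thus lower at the high dose at 12 h and higher at 24 h, with no count in the low-dose library at 24 h. On the downward side, ENSMODT00000037420, given above, had an adjusted p of 0.0245, and ENSMODT00000002859 was at 47.0 and 66.2 CPM in the 12 h pair and at 88.7 and 0 CPM in the 24 h pair (adjusted p = 0.0273). All 4 lost their calls without any 1 of the controls and with halved counts, at adjusted p from 0.0564 to 0.102.

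Few transcripts differed the same way at both times. The pairs share no library, so each time can be read at the other. At 12 h, 349 transcripts (2.78%) were more than 4-fold higher at the high dose; 83 of them (23.8%) were so at 24 h too, while 76 (21.8%) were more than 4-fold lower there. In all, 11.1% of transcripts (1396) were more than 4-fold higher and 21.4% (2685) more than 4-fold lower at 24 h. These counts had all 10 libraries scaled together, and the high-dose library of 24 h had no count for 2866 of the transcripts tested. With the 24 h pair scaled on its own, 720 were more than 4-fold higher and 1032 lower. The shares given here thus depended on whether all 10 libraries or the pair alone entered the log2 values. The median difference over all transcripts at 24 h was -0.20 on the log2 scale with all 10 libraries and -0.16 with the pair alone. How much of the gap in these counts came from scaling was not tested. The part of the prior count, which weighs most on zeros and low counts, was not tested either. Of 299 transcripts (2.38%) more than 4-fold lower at 12 h, 100 (33.4%) were so at 24 h and 60 (20.1%) were more than 4-fold higher. Read the other way, the 83 were 5.95% of the 1396, and the 100 were 3.72% of the 2685.

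Across the 12565 transcripts the differences at 12 and 24 h had a Pearson r of 0.0988 and a Spearman rho of 0.133. Among the 2536 transcripts with at least 20 counts in each of the 4 PFOA libraries, r was 0.324 and rho 0.312, and 58.4% had the same sign at both times. The SD of the difference over these transcripts was 0.37 at 12 h and 1.05 at 24 h on the log2 scale. These are descriptions across transcripts, which are not independent, and the 24 h pair has the lower depth. The 1347 calls at 24 h showed little at 12 h: the median log2 difference there was 0.37 for the higher and -0.05 for the lower ones, and 40 of 525 and 14 of 822 were past 2-fold in the same direction.

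**Figure D4:**
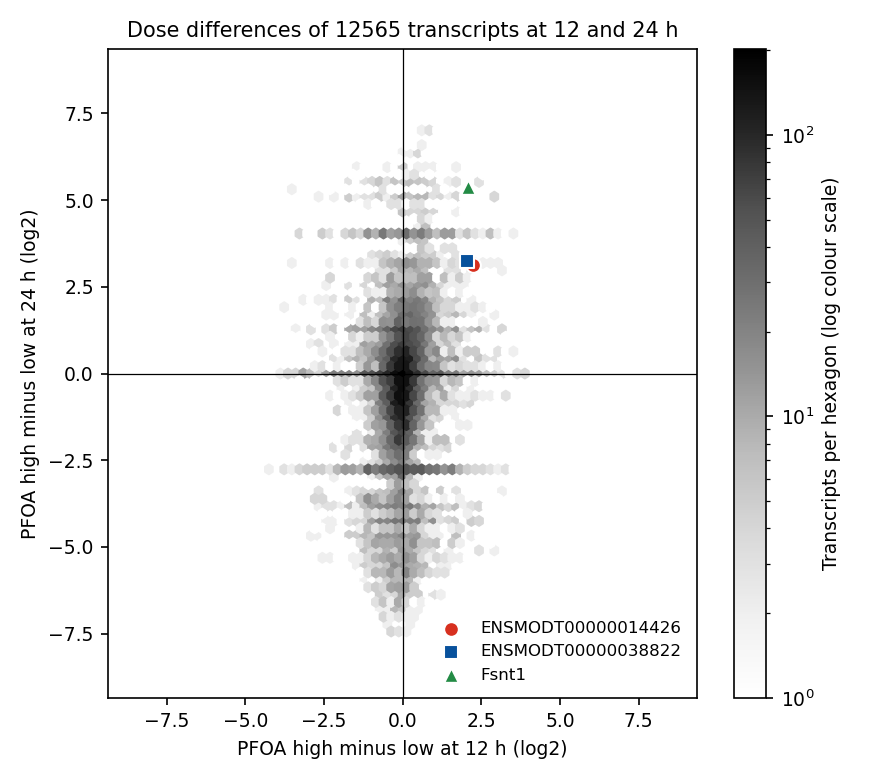
Log2 difference between high and low dose at 12 h (x axis) and at 24 h (y axis) for each tested transcript, as hexagons shaded by number on a log scale, with 3 named transcripts marked. The cloud is much taller than wide, and the 3 marked transcripts lie at the upper right; horizontal bands are transcripts with the same low counts at 24 h.

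Transcripts that fall early in untreated culture stood higher at the high dose at 24 h than transcripts in general. The list was taken from the 15 untreated libraries, which share nothing with the PFOA libraries: 473 tested transcripts that were lower at 12 than at 0 h. The test behind it had no term for the labels that these libraries share across times. At 24 h their median log2 dose difference was 0.53, against -0.20 over all transcripts. Of the list 41.0% were more than 2-fold higher and 19.0% more than 2-fold lower at the high dose, against 21.2% and 32.9% of all transcripts. Of its members 81 (17.1%) were called higher and 13 (2.75%) lower, beside 4.18% and 6.54% overall. At 12 h the median was 0.23 and the shares past 2-fold were 12.5% and 8.03%, beside 9.67% and 8.48%. With the list restricted to changes of at least 4-fold in culture, 54.1% were more than 2-fold higher and 14.5% lower at 24 h. The other lists restricted in this way also moved toward higher, that of early rise included (next paragraph). The shift on restriction was therefore not particular to transcripts that fall early.

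Transcripts that rise early in culture, taken at the threshold of the test, were close to all transcripts at 24 h. Of 516 such transcripts 22.3% were more than 2-fold higher and 34.1% lower, and 19 (3.68%) were called higher and 39 (7.56%) lower, beside 4.18% and 6.54% of all transcripts. Restricted to those that rose at least 4-fold, the shares were 43.7% higher and 20.4% lower, so the direction for this list depended on its threshold. The lists of late change were close to all transcripts in their shares past 2-fold: of 3248 transcripts lower at 72 than at 0 h, 22.2% were more than 2-fold higher and 34.4% lower, and of 3223 higher at 72 h, 21.6% and 29.0%. Restricted to changes of at least 4-fold, they were 33.1% higher and 28.7% lower for the first and 34.6% and 24.1% for the second, so the direction of these lists too depended on the threshold. Called higher at 24 h were 7.14% of the first and 2.82% of the second, and called lower 8.47% and 5.18%, beside 4.18% and 6.54% of all transcripts. Of 5663 transcripts in none of these lists, 188 (3.32%) were called higher and 362 (6.39%) lower, near the shares over all transcripts.

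Transcripts that declined between 12 and 24 h in the controls had a smaller median decline at the high dose than at the low dose. This list was added after the data had been seen. Unlike the lists from untreated blood, it and the list of 305 transcripts below came from the control libraries. Those libraries also enter the spread used for the 24 h calls, so the numbers called in these 2 lists are not independent of how the lists were chosen. The lists were chosen on the change in the controls, so a smaller change in other libraries can follow in part from the choice. The list of decline held 686 transcripts lower at 24 than at 12 h in the controls. Its median change from 12 to 24 h was -1.38 in the controls, -1.51 at the low dose and -0.75 at the high dose, on the log2 scale. Over all transcripts the median change was 0.03, -0.10 and -0.42 in the same order. At 12 h the doses were close over the list, with a median of -0.04 and 1.46% of its members more than 2-fold higher and 5.69% lower. At 24 h the median was 0.42, with 38.3% more than 2-fold higher and 20.4% lower. The 142 called higher were 20.7% of the list, beside 4.18% of all transcripts, and 27.0% of the 525. The 25 called lower were 3.64% of the list, beside 6.54% of all transcripts. The 305 transcripts that rose in the controls had a median of -0.33 at 24 h, with 11 called higher (3.61%) and 33 lower (10.8%), beside 4.18% and 6.54% of all transcripts. Their own median 12 to 24 h change was 1.66 in the controls, 1.42 at the low and 1.11 at the high dose. The step from low to high dose was close to that over all transcripts (-0.10 and -0.42), so it was not particular to this list. The list of 686 shared 92 transcripts with the early list of 473, which is 13.4% of the one and 19.5% of the other. Its median control level, 46.5 CPM, was above that of all transcripts, 20.02 CPM, whereas that of the early list was 13.5 CPM.

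**Figure D5:**
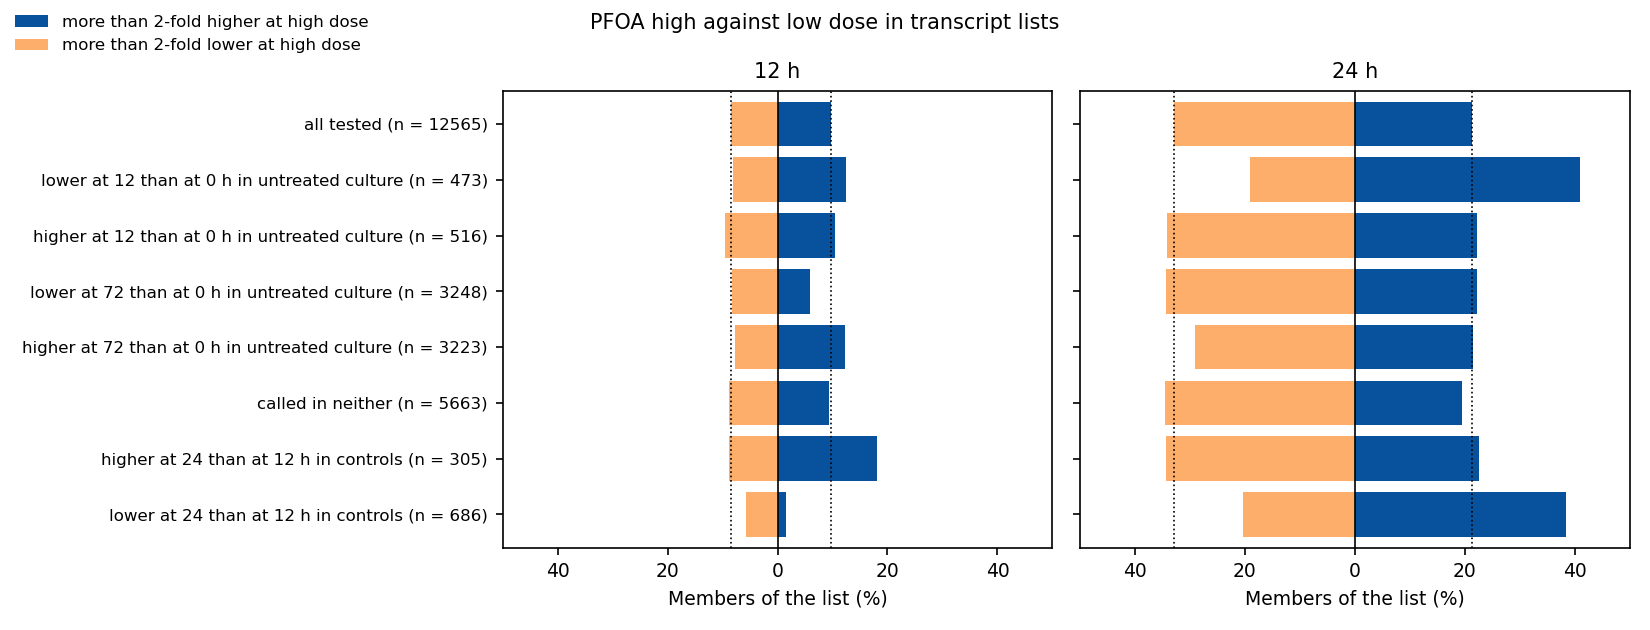
Percentage of each transcript list that was more than 2-fold higher (to the right) or lower (to the left) at the high dose, at 12 h and at 24 h; dotted lines mark all tested transcripts. At 24 h the list of early decline in untreated culture reaches 41.0% higher and the list of decline in the controls 38.3%, beside 21.2% of all transcripts.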

How the data were processed

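The authors deposited raw read counts per transcript, whole numbers not normalized, in 1 table per experiment; the files name no alignment, build or annotation, and use of strand in the counting is not given in the sources used here. Therefore overlapping, antisense and near-identical transcripts are uncertain. The submitters' processing notes name R 4.1.2, edgeR, bedtools 2.30.0, Bowtie2, TopHat2 2.1.1, Trimmomatic 0.36 and FastQC 11.5. Of 22063 features, 4 duplicated names were removed. Libraries were poly(A) selected. Counts were tested with edgeR 4.0.16 (limma 3.58.1, R 4.3.3): TMM scaling, filterByExpr on treatment (minimum count 10; 12565 transcripts kept), quasi-likelihood F test, Benjamini-Hochberg adjustment, call at 0.05. The dose over both times used treatment plus time (5 residual degrees of freedom); the within-time differences and their change used 1 mean per treatment and time (3). The lists from untreated blood used 1 mean per time, with no term for the labels shared across times. Log2 differences by size used CPM with the prior count set to 2 and all 10 libraries scaled together, save where a pair was scaled on its own. How far that prior acted on transcripts with few counts in the smallest libraries was not tested. The PFOA pairs scaled on their own gave fewer transcripts past 2-fold and 4-fold. The steps were run on simulated data in which all libraries had the same spread. That run could not test whether the PFOA libraries vary as the control and GenX replicates do. Depth was 366269 to 4027470 counts per PFOA library; 3 counts equal 0.723 to 9.52 CPM there. Intervals and floors cover counting error only, and even counts predominate, so they are too narrow. Alternatives were other scaling, filters, DESeq2 1.42.0, thinning, halved counts, other sets of libraries, a replicate block and left-out libraries; fits of the 12 h or the 24 h libraries alone were added after the data had been seen.

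The comparison and the lists were chosen with earlier results of these data known. Named transcripts were, per comparison, the 2 with the largest fold change in each direction among calls with at least 10 counts in the higher library or libraries and no overlap between doses, with open places filled by the smallest unadjusted p, plus every feature with a name.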

Additional observations from a re-analysis of the deposited data

Results flagged for a closer look

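A test of the change in the dose difference from 12 to 24 h passed for 196 transcripts (edgeR with Benjamini-Hochberg adjustment), with 1 library per dose and time and a spread taken from the control and GenX replicates. Among the named transcripts, the change had an adjusted p of 0.0338 for ENSMODT00000017157, 0.0245 for ENSMODT00000014775, 0.0245 for ENSMODT00000037420 and 0.0273 for ENSMODT00000002859. Each of these 4 had no count in 1 of the 24 h PFOA libraries. Time coincides with the replicate number in the PFOA libraries, and the number of such transcripts was 0 without any 1 of the 4 controls.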

How the results depend on the processing

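The 2 transcripts called over both times became 159 without a low-count filter, 109 by DESeq2, 13 in the 4 PFOA libraries alone and 1 in the 8 control and PFOA libraries. They became 0 with a replicate block; same-numbered PFOA libraries deviated together (Pearson r of 0.327 across transcripts), but number and time coincide there, so the block cannot be checked as a pairing. Leaving out 1 library gave 0 to 1718 calls: 0 without control R3 of 24 h or either low-dose library, 1 without the high-dose library of 24 h, and 1718 without that of 12 h, where the difference rests on the high-dose library of 24 h. At 12 h the count of 0 became 14 without a filter, 3 by DESeq2, 1 after thinning, and 0 to 3 with a library left out (3 without either GenX library). At 24 h the 1347 became 396 with halved counts, 2123 in the 24 h libraries alone (chosen after seeing the data), and 736 to 1896 with a library left out. The 196 changes became 817 without a filter, 467 by DESeq2, 3 with halved counts, and 0 to 705 with a library left out. The cause of these shifts was not tested. The composition ratios became 1.20 (12 h) and 1.55 (24 h) over 100 transcripts.

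With lists of at least 4-fold change, the shares past 2-fold at 24 h, higher and lower, were 54.1% and 14.5% (lower at 12 h in culture), 43.7% and 20.4% (higher at 12 h), 33.1% and 28.7% (lower at 72 h), and 34.6% and 24.1% (higher at 72 h). With a 2-fold in place of a 4-fold threshold, 34.7% of transcripts higher at 12 h were so at 24 h, and 15.8% of those higher and 9.88% of those lower at 24 h were so at 12 h. Depth limits the 24 h pair most, where 3 counts equal 3.75 and 9.52 CPM.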
